A study of Mus musculus with 8 samples.

Results

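Chromatin accessibility was examined around 10 genes of the lipid droplet and its lipases, *Plin2*, *Plin3*, *Plin4*, *Cidec*, *Hilpda*, *Pnpla2*, *Lipe*, *Lipa*, *Dgat1* and *Dgat2*, in mouse alveolar macrophages (AMs) lacking retinoid X receptors. ATAC-seq sequences DNA that the Tn5 transposase can reach in intact nuclei, and stretches with many cuts are listed as peaks. The 4 *Cd11cCre+ Rxrab fl/fl* libraries (RXR-deficient; replicates 1_2, 1_3, 2 and 3) were made from adult mice whose floxed *Rxra* and *Rxrb* are deleted by a Cre driven from the *Cd11c* promoter. The 4 *Rxrab fl/fl* libraries (control, replicates 1_2, 1_3, 3 and 4) came from adult mice with the same floxed alleles and no Cre. The paper gives both groups the same age. All mice of the study were on the C57BL/6J background and both sexes were used, but the sex behind each library is not given. The paper describes the cells as sorted mature AMs (CD11b-, SiglecF+), taken from bronchoalveolar lavage. Captions of some of its supplementary panels instead name immature AMs on the RXR-deficient side, and the library labels say only AMs. No control carries Cre, so Cre expression and the loss of RXRs cannot be told apart. *Cd11c* is active in dendritic cells as well as in AMs, and an effect of deletion in dendritic cells was not tested. Nothing in the labels says that the replicates are separate mice, so p-values measure the spread between these libraries.

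A region was taken when a peak of any library overlapped one of the 10 gene bodies or the 20 kb on either side (mm10 coordinates, GENCODE M21 genes), with peaks of different libraries joined where they shared a base. This gave 99 regions out of 82424 in the series. The windows of the 10 genes shared no region. Every library had a peak in 71 of the 99 (called shared regions here), 2 to 7 libraries did in 21 and 1 library did in 7. Shared regions made up 77.2% of the 92 regions seen in at least 2 libraries, against 65.3% of such regions in the series. By their summits, 34 regions lay within 1 kb of a transcription start of some gene, 27 in introns, 31 between genes, 4 in coding exons and 3 in UTRs. Only 12 were within 1 kb of a start of one of the 10 genes themselves.

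Lipid droplets store triglyceride and cholesteryl ester inside a coat of perilipins (*Plin2*, *Plin3*, *Plin4*). *Cidec* lets small droplets pass their lipid to larger ones, and *Dgat1* and *Dgat2* catalyse the last step of triglyceride synthesis. *Pnpla2* (adipose triglyceride lipase) and *Lipe* (hormone-sensitive lipase) break the store down in the cytosol, *Hilpda* inhibits the former, and *Lipa* (lysosomal acid lipase) hydrolyses lipid taken up by endocytosis. AMs clear surfactant lipid, and RXRs form dimers with PPARγ and the LXRs, nuclear receptors that control many genes of lipid handling. The element bound by RXR with PPARγ is called DR1 and that bound with LXR is called DR4.

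The deposited lists held 60363 to 72484 peaks per library. For each peak, the number of sequenced tags stacked at its summit was worked back from the fold enrichment and p-value, and the p-value was given back within a relative error of 1e-05 for 100% of peaks. Genome background ran from 1.12 to 2.26 tags per 200 bp, and the smallest summits held 6 to 9 tags. Within the RXR-deficient group, replicates 1_2 and 1_3 (chi-square per region 0.98) and replicates 2 and 3 (1.01) differed by no more than sampling noise, whereas the other pairs of that group gave 1.10 to 1.27 and the control pairs 1.12 to 1.99. Their strongest summits fell on the same base in 6.05% and 5.37% of shared regions, against 5.55% to 5.80% in the other RXR-deficient pairs. Neither measure can tell 2 libraries of 1 mouse from libraries of 2 mice. The 2 close pairs were kept as 4 libraries because the study counts them so, and each main call is also given with every close pair counted once. The labels were checked at *Rxra*, where one intronic region (chr2:27744546-27744950) held 38, 46, 38 and 42 tags in the controls and no peak in any RXR-deficient library. *Rxrb* held no region that separated the genotypes. Promoter peaks stood in all 8 libraries at 8 of 10 AM markers (*Siglecf*, *Marco*, *Itgax*, *Pparg*, *Car4*, *Fabp4*, *Mrc1* and *Spi1*) and in none at *Chil3* and *Krt79*. Markers of T and B cells had none in any library. Of the other lists, *Epcam* and *Cdh1* had one in all 8 and *Sftpc* in none (epithelium), *Pecam1* in all 8 and *Cdh5* and *Tek* in none (endothelium), *S100a8* in all 8 and *Ly6g* and *Mpo* in none (neutrophils), *Flt3* in all 8 and *Cd209a* and *Siglech* in none (dendritic cells), and *Ly6c2* in all 8 and *Ccr2* in 1 library of each genotype (monocytes).

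The sequences around the summits of the *Plin2* and *Cidec* regions that carry the main differences are shown with 100 bases on each side (plus strand of GRCm38, the assembly behind mm10, read 5′ to 3′; both genes are on the minus strand). The *Plin2* region at −2.0 kb is included as the neighbour that did not pass the test. Capitals mark matches to the motifs searched on both strands: DR1 (2 copies of AGGTCA 1 base apart, at most 2 mismatches), DR4 (the same copies 4 bases apart), PU.1 (GAGGAAGT), CEBP (TTGCGCAA, at most 1 mismatch), AP-1 (TGANTCA) and the E-box (CACGTG).
Plin2 upstream region at −2.9 kb, chr4:86672892-86673092: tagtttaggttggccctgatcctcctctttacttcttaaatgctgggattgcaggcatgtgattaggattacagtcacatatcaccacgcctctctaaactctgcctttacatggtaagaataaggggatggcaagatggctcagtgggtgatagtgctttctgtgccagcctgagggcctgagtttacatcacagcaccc
Plin2 upstream region at −2.0 kb, chr4:86671966-86672166: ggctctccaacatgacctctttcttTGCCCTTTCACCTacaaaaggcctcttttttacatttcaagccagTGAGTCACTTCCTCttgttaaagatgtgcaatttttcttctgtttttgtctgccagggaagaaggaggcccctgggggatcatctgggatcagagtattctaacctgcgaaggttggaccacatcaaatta
Plin2 promoter, chr4:86669925-86670125: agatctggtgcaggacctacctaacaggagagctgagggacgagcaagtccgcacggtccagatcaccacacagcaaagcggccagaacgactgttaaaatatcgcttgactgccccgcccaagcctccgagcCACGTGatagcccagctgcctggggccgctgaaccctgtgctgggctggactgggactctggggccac
Cidec region at +0.9 kb, chr6:113434748-113434948: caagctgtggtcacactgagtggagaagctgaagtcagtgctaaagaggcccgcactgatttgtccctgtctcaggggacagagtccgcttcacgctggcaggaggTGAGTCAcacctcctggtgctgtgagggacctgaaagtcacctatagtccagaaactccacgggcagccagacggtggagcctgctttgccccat
Cidec promoter region at −0.2 kb, chr6:113435880-113436080: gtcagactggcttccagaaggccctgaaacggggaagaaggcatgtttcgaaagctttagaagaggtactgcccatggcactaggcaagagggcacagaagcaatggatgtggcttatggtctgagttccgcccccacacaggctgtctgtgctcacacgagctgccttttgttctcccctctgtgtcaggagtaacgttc
Cidec upstream region at −3.1 kb, chr6:113438789-113438989: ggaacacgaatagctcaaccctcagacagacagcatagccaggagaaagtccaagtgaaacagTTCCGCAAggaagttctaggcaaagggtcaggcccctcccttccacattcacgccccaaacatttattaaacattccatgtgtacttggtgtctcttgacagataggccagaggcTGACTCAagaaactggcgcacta

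The *Plin2* region at −2.0 kb held a DR1 match followed by an AP-1 match and a PU.1 match that overlap by 1 base. None of the other 5 sequences held a DR1 match. The region at −2.9 kb and the *Cidec* region at −0.2 kb held no match to any motif searched, the *Plin2* promoter held an E-box, the *Cidec* region at +0.9 kb an AP-1 match, and the *Cidec* region at −3.1 kb a CEBP and an AP-1 match. A match describes letters in this window and says nothing of binding.

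Accessibility at 9 of the 71 shared regions differed between genotypes when log2 summit tags were compared by limma across all 47499 shared regions of the series (Benjamini-Hochberg adjusted p under 0.05). Lower in RXR-deficient AMs were 6 regions, 3 at *Plin2* and 3 at *Cidec*, or 8.45% of the 71 against 7.03% of all regions tested. Higher were 3 regions, at *Dgat2*, in *Uvrag* and at the promoter of *Uhrf1*, or 4.23% against 5.81%. The shares for the 10 genes together were thus close to those of the series, and the median difference was 0.05 on the log2 scale against 0.04 over all regions. No called region lay in the windows of *Hilpda*, *Pnpla2*, *Lipe*, *Lipa* or *Dgat1*, and *Plin4* had no shared region to test. The 6 lower calls all had a *Plin2* or *Cidec* start as their nearest transcription start. Of the 37 regions nearest to a start of one of the 10 genes, 6 were lower and 1 higher, with a median difference of −0.12. Of the 34 nearest to another gene's start, 0 were lower and 2 higher, with a median of 0.15. Many of these 34 were promoters of other genes. The series was not divided in this way, so the counts have no series share beside them. Outside *Plin2* and *Cidec*, no region was called lower in either set. After division by each library's median, tags of the genotypes did not overlap in 10 regions, 5 with RXR-deficient lower (7.92% of all regions) and 5 with RXR-deficient higher (8.26%).

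Scaling and the set of libraries moved the balance of calls. Of the series' 6096 calls, 54.7% were lower in RXR-deficient AMs, but with scaling to genome background there were 2501, of which 77.2% were lower, and without control replicate 4 there were 6451, of which 49.3% were lower. Under genome background scaling 2 of the 71 regions were called, the *Plin2* region at −2.9 kb and the *Cidec* region at +0.9 kb. The same number was called when each close pair of RXR-deficient libraries was counted once, an alternative chosen after the data were seen.

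**Figure D1:**
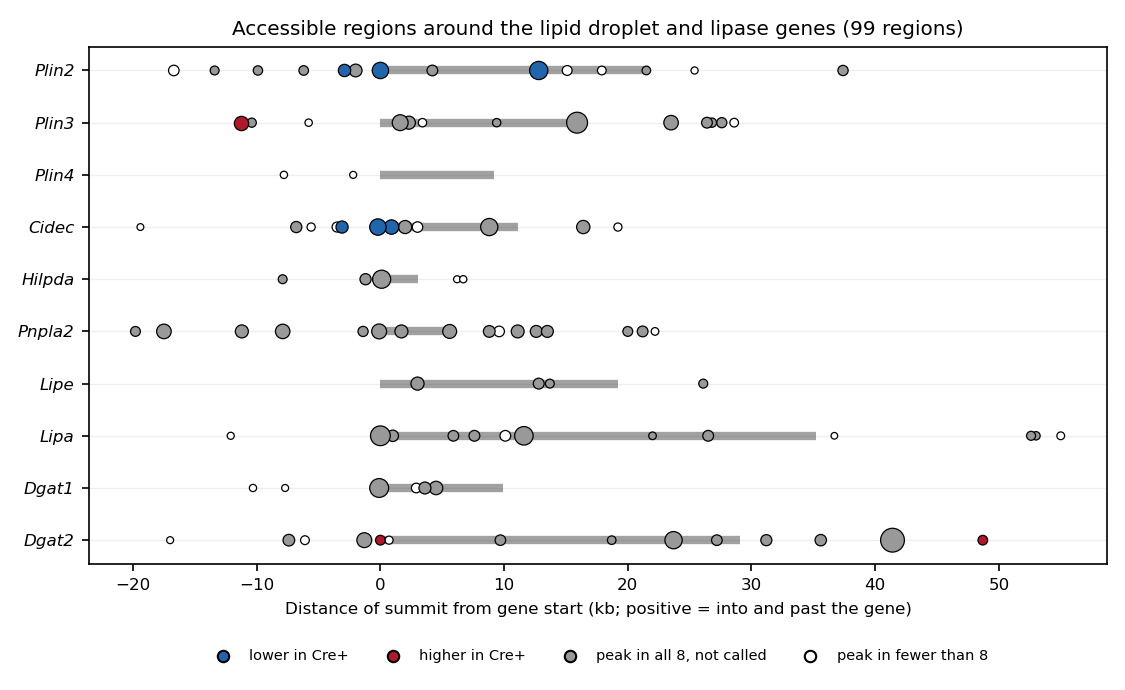
Summit position of the 99 regions by distance from the annotated gene start in kb (x axis) for each gene (rows); grey bars are gene bodies, point area grows with mean scaled tags, and colour gives the call. The 6 lower calls (blue) lie at *Plin2* and *Cidec*. The 3 higher ones (red) lie at the *Dgat2* start, at the edge of the *Dgat2* window and upstream of *Plin3*. *Plin4* has 2 regions, neither of them shared.

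*Plin2*, which coats droplets in most cells and accumulates in lipid-laden macrophages, had 14 regions, of which 10 were shared. In 9 of these 10 the difference was below 0, with a median of −0.18, and 3 passed the test. The upstream region at −2.9 kb (chr4:86672842-86673216, 375 bp, intergenic) gave the largest difference of all the regions tested for the 10 genes. RXR-deficient tags were 105, 94, 53 and 57 in the replicate order given above, and control tags were 128, 141, 161 and 135. Every RXR-deficient library was thus below every control, and the 2 close pairs of RXR-deficient libraries sat at different levels. Scaled to equal library medians, the means were 82.6 ± 21.6 (SD, n = 4) and 133 ± 22.2 tags (SD, n = 4), and the highest RXR-deficient library (105.6) lay just below the lowest control (105.9). The difference was −0.71 (SE 0.13, 95% confidence interval −0.98 to −0.44, limma adjusted p = 0.000139), or 61.1% of the control level. Scaled to genome background it was −0.76 (adjusted p = 0.000513), and with close pairs counted once it was −0.71 (adjusted p = 0.0037).

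The *Plin2* promoter (chr4:86669269-86670258) was lower by less. Its tags were 207, 188, 172 and 147 in RXR-deficient and 245, 309, 240 and 217 in control libraries. The scaled tags did not overlap between genotypes, at 193 ± 13.1 and 235 ± 10.9 (SD, n = 4 each). The difference of −0.29 (SE 0.085, limma adjusted p = 0.0186) was not called with genome background scaling (adjusted p = 0.26) or with close pairs counted once (adjusted p = 0.093), and it fell to −0.09 (adjusted p = 0.773) when the summits of several peaks in the region were added up.

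Within *Plin2*, the region at +12.8 kb (chr4:86657098-86658001, summit in a coding exon) had the highest tags of its 14 regions. RXR-deficient libraries held 259, 241, 216 and 203 tags and controls 306, 367, 323 and 287. On the scaled values the genotypes did not overlap, with means of 249 ± 7.71 and 300 ± 21.0 (SD, n = 4 each). The difference was −0.27 (SE 0.080, limma adjusted p = 0.0192) and was not called with genome background scaling (adjusted p = 0.309) or close pairs counted once (adjusted p = 0.111).

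The neighbouring region at −2.0 kb, which holds the DR1 match, had 132, 140, 81 and 71 tags in RXR-deficient and 116, 152, 128 and 127 in control libraries. These overlapped, and the difference of −0.14 did not pass the test (limma adjusted p = 0.496). Because both regions come from the same library, their ratio does not depend on scaling between libraries. The tags at −2.9 kb were 0.796, 0.671, 0.654 and 0.803 times those at −2.0 kb in RXR-deficient libraries, and 1.10, 0.928, 1.26 and 1.06 times in controls. The 2 sets did not overlap (exact two-sided permutation test, p = 0.0286, the smallest that 4 against 4 allows). This pair was picked after its values were seen, and over the 6 ratios computed at *Plin2* and *Cidec* the adjusted p was 0.171. The ratio of the promoter to the region at −2.0 kb overlapped between genotypes, at 1.78 ± 0.38 and 1.93 ± 0.18 (SD, n = 4 each, exact permutation p = 0.514). So did the ratio of the region at −2.9 kb to the promoter, at 0.426 ± 0.096 and 0.568 ± 0.097 (SD, n = 4 each, exact permutation p = 0.114). Of the other *Plin2* regions, 3 were single-library peaks of control replicate 3, and the one at −16.7 kb lacked a peak in that library alone.

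*Cidec* had 12 regions, of which 7 were shared. These 7 had a median difference of −0.26, with 4 of them below 0. The 3 called regions lay between −3.1 and +0.9 kb of the gene start. The region at +0.9 kb (chr6:113434528-113435099), whose summit is 84 bp from the start of a shorter *Cidec* transcript, held 139, 144, 100 and 113 tags in RXR-deficient and 205, 256, 196 and 142 in control libraries. No scaled RXR-deficient value (114.0 to 147.0) reached the lowest control (161.8). The means were 134 ± 14.2 and 184 ± 16.7 (SD, n = 4 each), a difference of −0.46 (SE 0.098, 95% confidence interval −0.65 to −0.26, limma adjusted p = 0.000804) or 72.8% of the control level. It kept its call with genome background scaling (−0.51, adjusted p = 0.0332) and with close pairs counted once (−0.46, adjusted p = 0.0119).

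The region just upstream of the *Cidec* start, at −0.2 kb (chr6:113435707-113436200), held 190, 207, 157 and 164 tags against 254, 265, 279 and 219. Control replicate 1_3 fell within the RXR-deficient range once scaled. The difference was −0.29 (SE 0.089, limma adjusted p = 0.0234). The region at −3.1 kb (chr6:113438721-113439022) held 108, 85, 77 and 67 tags against 120, 153, 127 and 101, and its scaled values did not overlap. Its difference was −0.36 (SE 0.11, limma adjusted p = 0.0229). Neither was called with genome background scaling (adjusted p = 0.248 and 0.163) or with close pairs counted once (adjusted p = 0.121 and 0.0791).

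Farther into *Cidec*, the region at +8.8 kb had the highest tags of the gene and did not differ between genotypes beyond its error. Its scaled means were 241 ± 33.6 and 240 ± 41.6 tags (SD, n = 4 each), a difference of 0.01 with a 95% confidence interval of −0.19 to 0.21 (limma adjusted p = 0.965). The ratios computed at *Cidec* overlapped between genotypes (SD, n = 4 each). Tags at +0.9 kb were 0.566 ± 0.103 times those at +8.8 kb in RXR-deficient libraries. In controls they were 0.793 ± 0.201 times (exact permutation p = 0.143). Their ratio to the *Rpusd3* promoter in this window was, in that order, 1.02 ± 0.234 and 1.48 ± 0.309 (permutation p = 0.0857). The region at −0.2 kb to that promoter gave 1.47 ± 0.263 and 1.89 ± 0.0867 (permutation p = 0.0571). The intronic region at +2.0 kb had a difference of −0.26 that did not pass the test (limma adjusted p = 0.0943). At −3.5 kb a short region was listed in 3 RXR-deficient libraries (replicates 1_2, 1_3 and 2, at 62, 61 and 50 tags) and in no control. Its peaks were 205 to 210 bp long, and no peak under 200 bp is listed anywhere, so a narrower stretch of similar height would leave no entry.

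**Figure D2:**
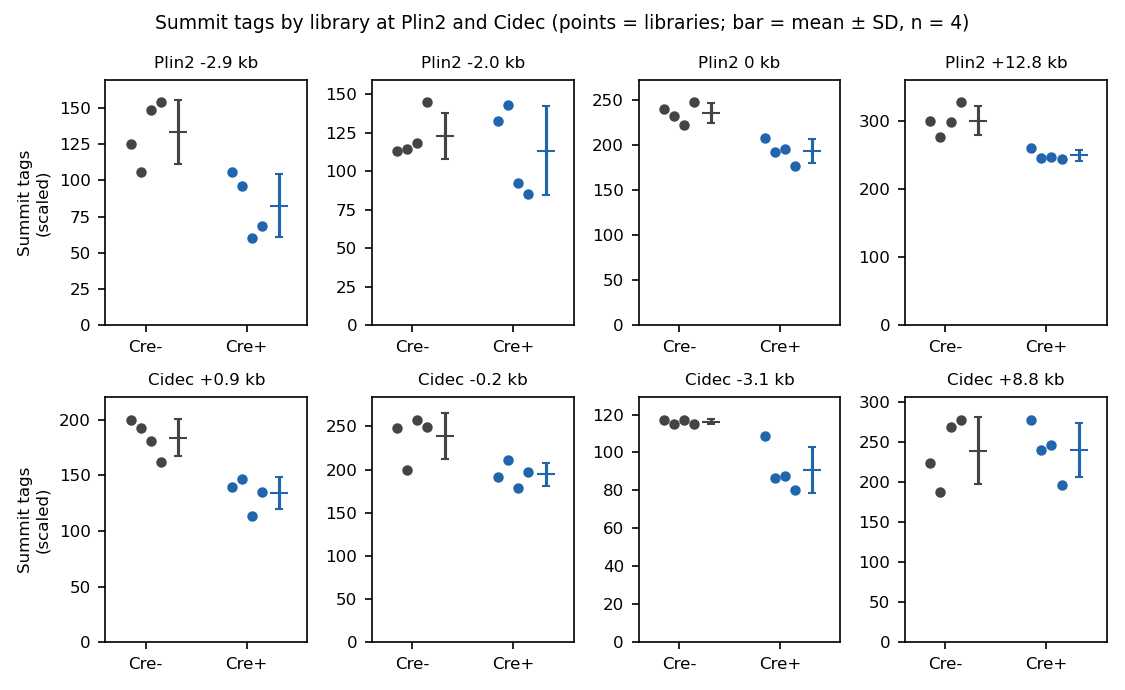
Summit tags per library, divided by each library's relative median (y axis, from 0), at 4 *Plin2* and 4 *Cidec* regions; points are libraries (control, Cre-, grey; RXR-deficient, Cre+, blue) and bars are mean ± SD, n = 4. The genotypes separate at *Plin2* −2.9, 0 and +12.8 kb and at *Cidec* +0.9 and −3.1 kb, and overlap at *Plin2* −2.0 kb and at *Cidec* −0.2 and +8.8 kb.

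Among the other perilipins, *Plin3*, a perilipin that moves from the cytosol onto new droplets, had 13 regions and 10 shared ones. Only 1 of the 10 differences was below 0, and the median was 0.19. Its start regions at +1.6 and +2.3 kb gave 203 ± 13.7 against 198 ± 24.8 and 133 ± 10.8 against 118 ± 13.5 scaled tags (SD, n = 4 each). Their differences of 0.04 and 0.18 did not pass the test (limma adjusted p = 0.844 and 0.278), and the former changed sign under 2 other scalings. The highest tags in the *Plin3* window, 336 to 379 in RXR-deficient and 324 to 463 in control libraries, belonged to the promoter of *Ticam1*, an adaptor of Toll-like receptor signalling (0.14, limma adjusted p = 0.231). The only called region in this window lay at the promoter of *Uhrf1*, a gene of DNA methylation maintenance, at −11.3 kb (chr17:56303901-56304541). It held 173, 157, 147 and 153 tags against 127, 163, 160 and 149, with overlapping scaled values, and the difference was 0.29 (SE 0.10, limma adjusted p = 0.0462). It was not called with genome background scaling (adjusted p = 0.591) or close pairs counted once (adjusted p = 0.188). Another region at the *Uhrf1* promoter, at −10.4 kb and 45 bp from a start, gave 0.20 and was not called (limma adjusted p = 0.5).

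*Plin4*, a perilipin known mainly from fat and muscle, had no peak within 1 kb of any of its starts. Its 2 regions were weak. The one at −7.8 kb is the promoter of the neighbouring *Plin5* and held 22, 25 and 15 tags in 3 RXR-deficient libraries and 15, 15, 13 and 14 in the 4 controls. The one at −2.2 kb held 12 to 16 tags in 2 libraries of each genotype. Neither could be fitted, since only shared regions were fitted.

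*Dgat2*, one of the 2 enzymes that complete triglyceride synthesis, had 14 regions and 11 shared ones. Its promoter (chr7:99182557-99183170) was higher in RXR-deficient AMs, with 57, 67, 63 and 50 tags against 38, 60, 55 and 47. Scaled, these were 64.4 ± 6.84 and 46.7 ± 7.27 tags (SD, n = 4 each) and did not overlap. The difference was 0.47 (SE 0.15, 95% confidence interval 0.17 to 0.77, limma adjusted p = 0.0302). It was no longer called with genome background scaling (0.41, adjusted p = 0.29) or with close pairs counted once (0.47, adjusted p = 0.124). The promoter is CpG-rich, with 21 CpG in the 201 bases printed here, and no motif match was found.
Dgat2 promoter, chr7:99182662-99182862: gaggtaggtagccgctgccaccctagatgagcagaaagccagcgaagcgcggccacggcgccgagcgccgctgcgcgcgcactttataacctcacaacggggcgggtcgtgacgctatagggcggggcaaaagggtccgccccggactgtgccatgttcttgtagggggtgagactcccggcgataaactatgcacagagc

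At +48.7 kb of *Dgat2*, inside *Uvrag*, a gene of autophagy and endosome traffic, a region (chr7:99133870-99134441) held 59, 60, 57 and 50 tags against 45, 65, 55 and 34. The difference was 0.43 (SE 0.15, limma adjusted p = 0.0431), with adjusted p = 0.381 under genome background scaling and 0.155 with close pairs counted once. The *Uvrag* promoter in the same window had the highest tags around any of the 10 genes, 422 to 496 in RXR-deficient and 488 to 535 in control libraries, and gave a difference of 0.06 (limma adjusted p = 0.668). The region at −1.3 kb of *Dgat2* held more tags than its promoter, 153 to 189 against 160 to 176, and its difference of 0.20 did not pass the test (limma adjusted p = 0.166). The exonic region at +23.7 kb gave 0.24 (limma adjusted p = 0.0673).

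*Dgat1*, the other enzyme of this step, had 6 regions and 3 shared ones, none called. Its promoter held 313, 273, 291 and 233 tags against 240, 364, 320 and 312, and the scaled values overlapped (301 ± 26.4 and 290 ± 50.6, SD, n = 4 each). The difference was 0.07 with a 95% confidence interval of −0.12 to 0.25 (limma adjusted p = 0.693). At +2.9 kb, in an intron, a peak was listed in 3 controls (replicates 1_2, 1_3 and 3, at 52, 73 and 61 tags) and in no RXR-deficient library. The intronic regions on its far side, at +3.6 and +4.5 kb, were open in all 8 libraries and gave −0.18 and −0.05 (limma adjusted p = 0.338 and 0.803).

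**Figure D3:**
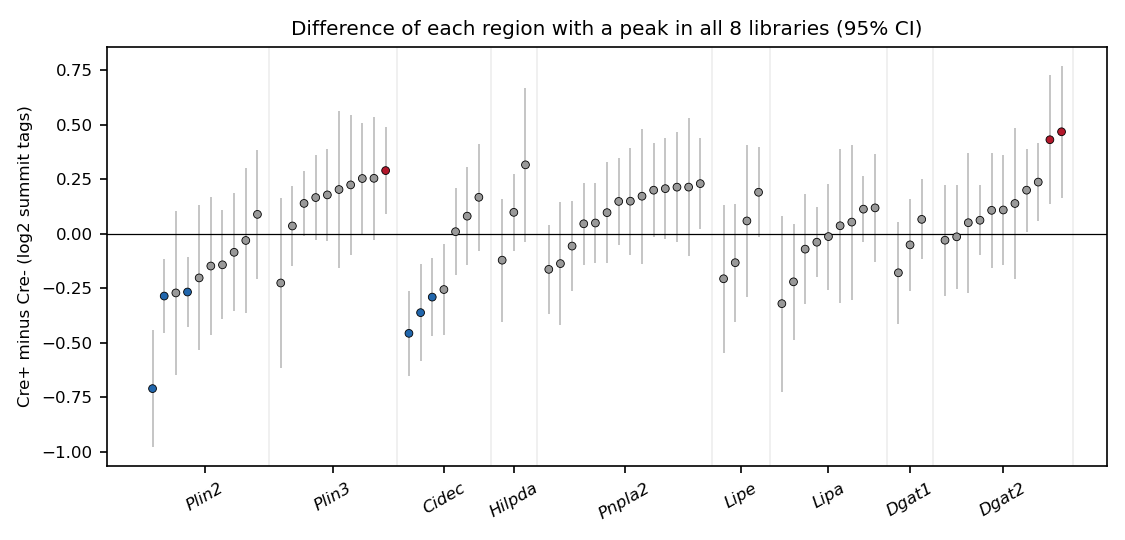
Difference in log2 summit tags, RXR-deficient (Cre+) minus control (Cre-), of the 71 shared regions (y axis), ordered within each gene (x axis); bars are 95% confidence intervals and colours are as in the map of regions. *Plin2* lies mostly below 0 (median −0.18, 9 of 10 regions below). *Cidec* has a median of −0.26 with 4 of 7 regions below. *Plin3* and *Pnpla2* lie mostly above 0 (0.19 and 0.15), and most intervals include 0.

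The lipases gave no called region. *Pnpla2*, the first lipase to act on stored triglyceride, had 16 regions and 14 shared ones, most of them at other genes of this gene-dense window. Its promoter held 184, 181, 155 and 129 tags against 178, 202, 180 and 164, with scaled means of 175 ± 14.2 and 170 ± 14.7 (SD, n = 4 each). The difference was 0.05 (95% confidence interval −0.14 to 0.23, limma adjusted p = 0.8) and its sign changed with genome background scaling (−0.01). Differences in the window ran from −0.16 to 0.23. A peak at +9.6 kb, in an exon of *Cracr2b*, was listed in 3 controls (replicates 1_3, 3 and 4, at 97, 72 and 63 tags) and in no RXR-deficient library.

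*Lipe* had 4 regions, all shared and none called. None lay at the 5′ end of the longest annotated gene model. The region at +3.0 kb, 683 bp from the start of a shorter *Lipe* transcript and 282 bp from that of 4732471J01Rik, held 135, 115, 117 and 127 tags against 111, 160, 127 and 109. Scaled, the means were 135 ± 14.3 and 118 ± 6.71 (SD, n = 4 each), a difference of 0.19 (limma adjusted p = 0.232).

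*Lipa* had 13 regions and 9 shared ones. Its promoter held 328, 331, 304 and 288 tags against 330, 401, 339 and 280, higher than 96.7% of all regions tested by mean. The scaled values did not overlap, at 340 ± 7.75 and 314 ± 9.26 (SD, n = 4 each), but the difference was only 0.11 with a 95% confidence interval of −0.04 to 0.26 (limma adjusted p = 0.352). The intronic region at +11.6 kb was almost as strong, with 227 to 294 and 248 to 360 tags, and gave −0.04 (limma adjusted p = 0.803). The lowest difference among the *Lipa* regions, −0.32 at +22.0 kb, rested on 14 to 20 against 19 to 38 tags and did not pass the test (limma adjusted p = 0.318).

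*Hilpda*, the hypoxia-induced inhibitor of *Pnpla2*, had 5 regions and 3 shared ones. Its promoter held 304, 254, 255 and 219 tags against 277, 290, 281 and 263, and the scaled values overlapped (280 ± 22.4 and 262 ± 33.9, SD, n = 4 each). The difference was 0.10 (95% confidence interval −0.08 to 0.27, limma adjusted p = 0.505). The region at −1.2 kb gave −0.12 and that at −7.9 kb 0.32, and neither passed the test (limma adjusted p = 0.629 and 0.25).

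**Figure D4:**
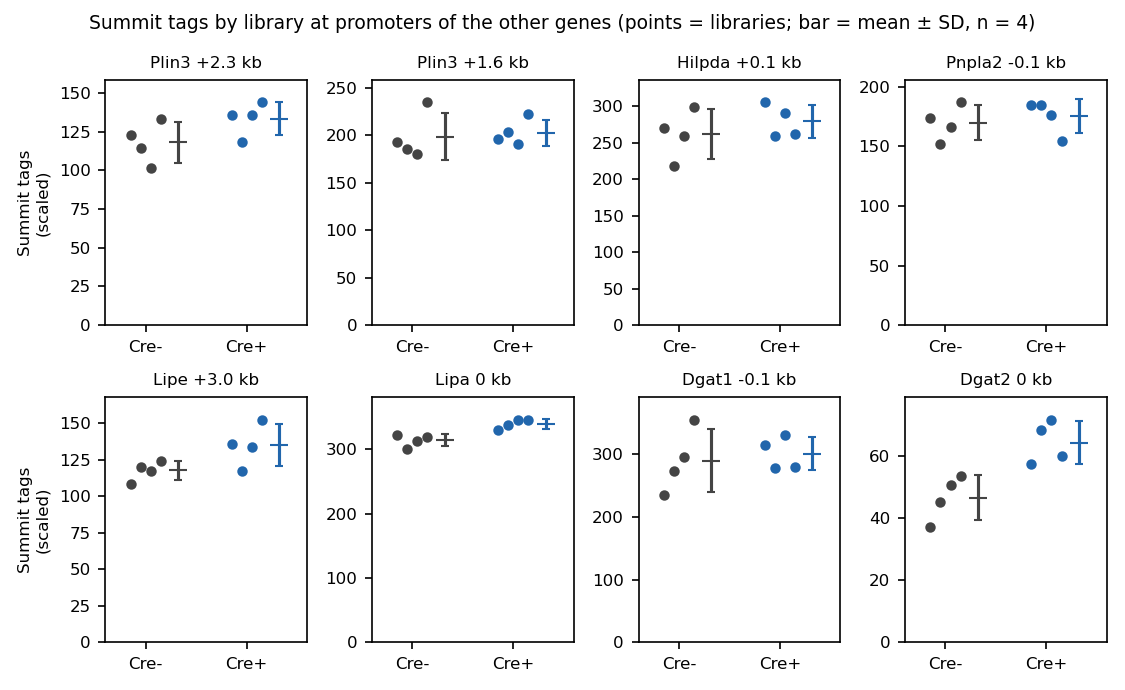
Scaled summit tags per library (y axis, from 0) at the regions nearest to the starts of *Plin3*, *Hilpda*, *Pnpla2*, *Lipe*, *Lipa*, *Dgat1* and *Dgat2*; points are libraries and bars are mean ± SD, n = 4. *Dgat2* is the only one of these past the test, *Lipa* separates by a narrow margin without passing it, and the rest overlap.

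No region of the 10 genes was listed for the 4 libraries of 1 genotype and missing from all those of the other. In the series, 0.820% of the 72711 regions seen in at least 2 libraries had one in the 4 controls alone and 0.285% in the 4 RXR-deficient libraries alone. With 1 library allowed to depart, 3 regions leaned to the control side (3.46% of the series) and 1 to the RXR-deficient side (1.20%), namely the *Dgat1*, *Pnpla2* and *Cidec* window regions given above and one at −5.8 kb of *Plin3*, in an intron of *Arrdc5*, with 22, 21, 16 and 18 tags in the controls and 14 in RXR-deficient replicate 3 alone. Those values describe lists that depend on peak length as well as height and carry no test.

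DR1 matches lay within 100 bp of the summit in 6 of the 92 regions seen in at least 2 libraries (6.52%), against 4.14% of such regions in the series. They were at −2.0 and −13.4 kb of *Plin2*, +26.8 and −5.8 kb of *Plin3*, +1.7 kb of *Pnpla2* and +23.7 kb of *Dgat2*. Only the match at +26.8 kb of *Plin3* had as few as 1 mismatch. None of the 9 called regions was among the 6. DR4 matches were in 2 regions (2.17% against 2.63%), PU.1 in 5 (5.43% against 10.7%), CEBP in 10 (10.9% against 7.38%), AP-1 in 21 (22.8% against 11.9%) and the E-box in 7 (7.61% against 5.35%).

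**Figure D5:**
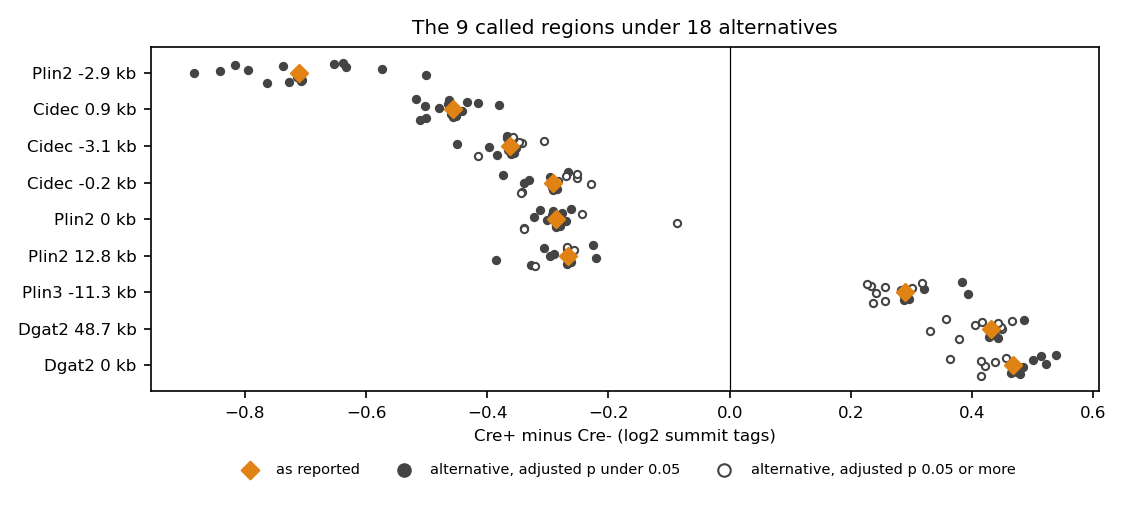
Difference in log2 summit tags (x axis), RXR-deficient minus control, of the 9 called regions (rows) as reported (diamond) and under 18 alternatives (circles; filled where adjusted p is under 0.05). The regions at −2.9 kb of *Plin2* and +0.9 kb of *Cidec* stay filled in all 18, and the 3 regions above 0 lose their call in 8 to 12 of them without changing sign.

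Across the 18 alternatives of the fit, the *Plin2* region at −2.9 kb ranged from −0.88 to −0.50 (adjusted p at most 0.0356) and the *Cidec* region at +0.9 kb from −0.52 to −0.38 (adjusted p at most 0.0332). The *Plin2* promoter and its region at +12.8 kb passed the test in 13 of 18, the *Cidec* regions at −3.1 and −0.2 kb in 10 and 9, the *Dgat2* promoter in 10, and the *Uvrag* and *Uhrf1* regions in 6 each. All 9 kept their direction. These bulk values cannot tell apart fewer cells with an open site and a less open site in each cell.

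Other genes of lipid droplets and lipid storage were examined from a list of 42, of which 41 were found in the annotation. Outside the regions already counted they had 243 shared regions, of which 31 were lower (12.8%, against 7.03% of the series) and 9 higher (3.70%, against 5.81%). The median difference was −0.01. Called regions that were lower lay in the windows of 16 genes, *Plin1*, *Mgll*, *Lpl*, *Pnpla7*, *Pnpla8*, *Nceh1*, *Gpat3*, *Gpam*, *Lpin1*, *Lpin2*, *Hsd17b11*, *Hsd17b13*, *Acsl1*, *Acsl3*, *Angptl4* and *Cd36*, and higher ones in those of 7, *Cideb*, *Pnpla3*, *Soat1*, *Gpat4*, *Lpin2*, *Acsl1* and *Ddhd2*. *Hsd17b11* and *Hsd17b13* share the same called region. Several calls lay at promoters of other genes, among them *Nrcam* (*Pnpla8* window), *Dhrs1* (*Cideb*), *Samm50* (*Pnpla3*), *Cenpu* (*Acsl1*), 9330171B17Rik (*Plin1*) and 6430710M23Rik (*Ddhd2*). With genome background scaling 12 were lower and 1 higher, with close pairs counted once 15 and 2, and without control replicate 4 21 were lower and 14 higher. The series had 6096 calls among its 47499 shared regions as reported (54.7% lower). It had 2501 with genome background scaling (77.2% lower) and 3011 with close pairs counted once (66.6% lower). In both of those settings, fewer regions were thus called here and across the series.

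The lowest adjusted p in that list belonged to the promoter of *Nsmf* in the *Pnpla7* window, with 59, 55, 41 and 50 tags in RXR-deficient and 157, 140, 159 and 115 in control libraries (−1.26, SE 0.13, limma adjusted p = 2.86e-10). The intronic region at +5.2 kb of *Gpat3*, an enzyme of the first step of glycerolipid synthesis, held 88, 79, 56 and 65 against 155, 200, 148 and 134 tags (−0.93, SE 0.11, limma adjusted p = 2.25e-08). Downstream of *Lpl*, which encodes lipoprotein lipase, the region at +34.2 kb held 151, 143, 137 and 144 against 229, 249, 319 and 233 (−0.61, SE 0.10, limma adjusted p = 1.64e-05). These genotypes did not overlap at any of the 3. At −12.3 kb of *Gpam*, which starts triglyceride synthesis at mitochondria, the difference was −0.49 (limma adjusted p = 4.37e-05), and at +2.4 kb of *Angptl4*, an inhibitor of lipoprotein lipase, it was −0.58 (limma adjusted p = 5.55e-05).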

How the data were processed

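ATAC-seq was analysed in 4 RXR-deficient and 4 control AM libraries. The authors used Cutadapt for trimming and Bowtie2 for alignment to mm10, dropped duplicates and alignments of low quality, and called peaks in each library alone with MACS3 (no model, tags shifted and extended, q of 0.05, no control), so replicates were not pooled. Each deposited list gives per peak a display score (unused), a fold enrichment at the summit (a ratio to local background) and −log10 p and q values. Depth in reads is not given in the lists; counts of tags were worked back from the deposited fold and −log10 p as the whole number that gave p back within 1e-05.

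Peaks were merged across libraries where they shared at least 1 base. A region's value in a library was its highest summit. Log2(tags + 0.5) of the 47499 regions with a peak in all 8 had the library median subtracted and was tested with limma 3.58.1 (moderated variance with a trend, R 4.3.3), without covariates, adjusted p under 0.05 by Benjamini-Hochberg. Fold changes are on this scale, which understates low values; summit maxima of peaks that had to be listed cannot show losses below the calling limit. Scaled tags are tags divided by the library's median relative to the mean of the medians. Regions named are those over each gene's own start, every called region, every near one-sided region and the strongest of each gene; others named were chosen after their values were seen. The genes, lists and windows were chosen with earlier results of these data known. Motifs were searched by a script in the RefSeq GRCm38.p6 sequence, within 100 bp of the summit. Alternatives covered scaling, pseudocount, filter, variance trend, sums of summits, merging, window, replicate block, averaging and leaving out each library. No authors' comparison was used.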

Additional observations from a re-analysis of the deposited data

Results flagged for a closer look

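In the 19 shared regions chosen for naming by the stated rule (38 groups of 4), 2 groups had a library set apart from the other 3 by Dixon's test on scaled tags, about what chance gives at 1 group in 20. At +12.8 kb of *Plin2*, RXR-deficient replicate 1_2 was highest with 260 scaled tags against 244 to 246 in the others (ratio of gap to range 0.844). At −0.2 kb of *Cidec*, control replicate 1_3 was lowest with 199 against 248 to 258 (0.835). Without it, the *Cidec* difference was −0.37 (limma adjusted p = 0.00246), and without RXR-deficient replicate 1_2 the *Plin2* difference was −0.29 (limma adjusted p = 0.0287). The cause was not tested.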

How the results depend on the processing

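Of the 71 regions fitted, 9 were called as reported, 2 with genome background scaling, 4 without a variance trend, 4 with summits added up, 2 with close RXR-deficient pairs counted once and 5 in gene bodies alone. Among the 47499 regions of the series, 6096 were called as reported. The first 3 alternatives called 2501, 4244 and 4700 of them, and close pairs counted once called 3011. Leaving out 1 library in turn gave 4 to 10 of the 71, with 4 without RXR-deficient replicate 2 or 3 or control replicate 1_2 and 5 without control replicate 3. The series then had 4660, 4669, 5076 and 4561 calls in those 4 settings. The replicate block (numbers 1_2, 1_3 and 3, 6 libraries) called 10 (47.7% of the series' 6904 calls were lower, and 25 lower and 19 higher in the other lipid genes) and left *Cidec* −0.2 kb (−0.23, adjusted p = 0.0691) and the *Uvrag* region (0.33, adjusted p = 0.164) uncalled. Same-numbered libraries correlated by 0.056, 0.116 and 0.037 in their deviations from group means, so they were not taken as pairs. In the other lipid genes the count of 40 became 13, 21, 26 and 17 in the first 3 alternatives and with close pairs counted once, and 24 to 37 with 1 library left out. Regions numbered 56 within 5 kb and 40 in gene bodies, with 42 and 33 in all 8. One-sided regions, 0 as reported, became 4 with 1 library departing, 1 with 1_2 and 1_3 as 1 sample, and 0 to 2 with 1 library left out. DR1 matches fell from 6 to 2 within 50 bp and to 1 at 1 mismatch. Signs of uncalled promoters turned for *Plin3* +1.6 kb (−0.018 and −0.011 under genome background and quantile scaling, −0.0079 to 0.12 with 1 library left out, below 0 without RXR-deficient or control replicate 3), *Pnpla2* (−0.0075 under genome background scaling, −0.00049 with 1_2 and 1_3 averaged, −0.0059 to 0.10 with 1 library left out, below 0 without control replicate 1_3) and *Dgat1* (−0.030 to 0.17 with 1 library left out, below 0 without control replicate 1_2). The cause was not tested. Under the other alternatives the counts of calls stayed within 1.5 times. With 1_2 and 1_3 averaged in each genotype, 6 of the 71 were called, 6 lower and 0 higher. The *Dgat2* promoter, the *Uvrag* region and the *Uhrf1* region then had limma adjusted p of 0.0882, 0.069 and 0.16. The series had 4929 calls in that setting, of which 56.6% were lower.

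These lists start at 6 to 9 summit tags and 200 bp, so weaker or narrower sites cannot be compared, and 28 of the 99 regions had no test.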
